A study of Mus musculus with 7 samples.

Results

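The genes described here are 8 markers of the neural crest and of the glial lineage it gives rise to in sensory ganglia: Sox10, Foxd3, Erbb3, Fabp7, Sox2, Ednrb, Pax3 and Snai2. They were chosen by name and not by their values from the 29777 genes of the count table, though with earlier results of these data known. All 8 passed the filter on low counts that left 14040 genes for testing, Snai2 through its homozygote counts alone. The RNA came from cells of ICR mouse embryos at embryonic day 11.5 that the labels call TrkC neurons, taken by their GFP from cervical dorsal root ganglia. The 4 homozygote libraries came from Runx3-P2-/- embryos, which carry the GFP-bearing allele on both copies of Runx3, and the 3 heterozygote libraries from Runx3-P2+/- embryos, which carry it on 1 copy. Every library therefore has the GFP allele, and no library without it was analysed here. The sort selected GFP made from the Runx3 locus and not TrkC itself. Pools of 4 are named for each genotype, and nothing in the labels says that libraries came from separate litters, so the p-values cover the spread among the 7 libraries, which may be technical. Library numbers only name the libraries and pair none of them across genotypes.

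Dorsal root ganglia form from neural crest cells, which leave the dorsal neural tube, migrate and settle beside it. Crest cells carry the transcription factors Pax3, Foxd3, Snai2 and Sox10. As a ganglion forms, the cells that become neurons lose Sox10, Foxd3 and Sox2, while those that become satellite glia and Schwann cell precursors keep Sox10 and express the neuregulin receptor gene Erbb3 and the lipid-binding protein gene Fabp7. Ednrb encodes the endothelin receptor of crest-derived progenitors. Runx3 is a Runt-family transcription factor of the TrkC neurons, and the comparison of homozygotes with heterozygotes asks which genes differ when it is disrupted.

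Total counts were between 11184237 and 13986835 per library. As a check of the labels, Runx3 had 90, 148, 81 and 143 counts in the homozygotes, against 862, 1088 and 1087 in the heterozygotes, a log2 fold change of -3.22 ± 0.30 (SE, edgeR quasi-likelihood test, adjusted p = 0.00593 by Benjamini-Hochberg over all genes tested). Leaving out heterozygote 2 or heterozygote 3 ended that call, at edgeR adjusted p = 0.0885 and 0.0576. At an adjusted p below 0.05, the rule for a call, edgeR called 7 genes, 0.0499% of those tested, with 0.0142% higher and 0.0356% lower in homozygotes. An unadjusted p below 0.05 was reached by 12.6% of genes, 7.75% higher and 4.88% lower. DESeq2 called 4.77%, 3.46% higher and 1.31% lower. The values of the genotypes did not overlap for 12.4% of genes, 6.6% higher and 5.78% lower in homozygotes. The median log2 fold change of all genes tested was -0.02.

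None of the 8 markers was called: 0 of 8 passed edgeR's adjusted p, 0 of 8 passed with DESeq2, and 1 of 8, Snai2, which passed the filter only through the homozygotes, had an unadjusted edgeR p below 0.05. Their median log2 fold change was 0.15, with 5 positive and 3 negative. In bulk samples such as these, fewer cells of a type and less RNA per cell cannot be told apart, which holds for every gene below. Summed over the 8 genes, the level was 2023, 1024, 1639 and 1260 CPM (the count relative to the TMM-scaled library size) in homozygotes 1 to 4, against 2016, 1524 and 1772 CPM in heterozygotes 1 to 3. The ranges overlapped, and Fabp7 and Ednrb made up most of the sum in every library. The genes varied within a genotype by a median SD of 0.62 on the log2 scale, against 0.45 for all genes tested.

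**Figure D1:**
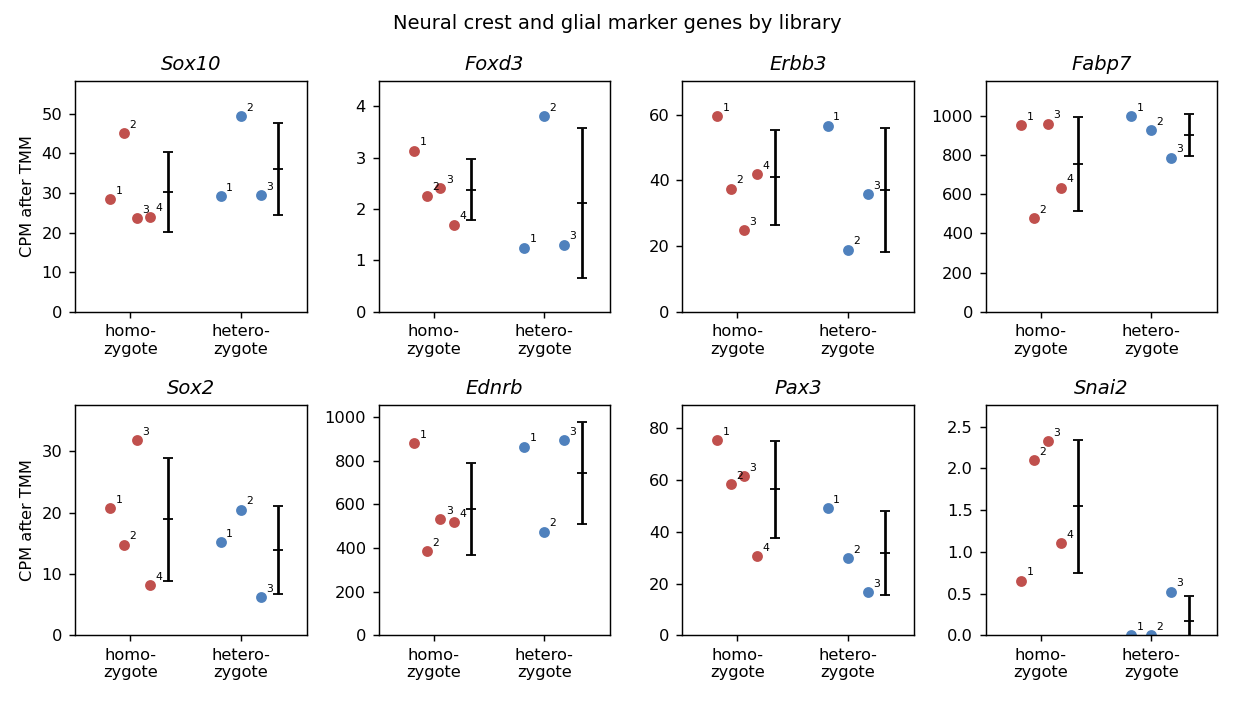
CPM after TMM scaling of each of the 8 genes (vertical axes, a separate scale for each gene, starting at 0) in the 4 homozygote (red, left) and 3 heterozygote (blue, right) libraries, numbered by library, with the mean and SD as black bars; the lower end of the heterozygote bar of Snai2 falls below 0 and is not drawn. The genotypes overlap for every gene but Snai2, whose 4 homozygote values of 0.656 to 2.32 CPM lie above the highest heterozygote value of 0.522 CPM. Snai2 passed the filter on low counts only through the homozygotes, and 12.4% of all genes tested were without overlap.

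RefSeq gave the 250 bases before the start site for 4 of the 8 genes, on GRCm38.p6: Foxd3, Fabp7, Sox2 and Ednrb. Shown in lower case, 5′ to 3′ on the gene's own strand, are those of Fabp7 and Ednrb, the most abundant of the 8 genes and the pair with the most similar profiles over the libraries, and that of Sox2, which held the one motif match. They lie at chr10:57784673-57784922 (plus strand, Fabp7), chr14:103843702-103843951 (minus strand, Ednrb) and chr3:34649745-34649994 (plus strand, Sox2). Capitals in Sox2 mark a match to ACAAAG.
Fabp7: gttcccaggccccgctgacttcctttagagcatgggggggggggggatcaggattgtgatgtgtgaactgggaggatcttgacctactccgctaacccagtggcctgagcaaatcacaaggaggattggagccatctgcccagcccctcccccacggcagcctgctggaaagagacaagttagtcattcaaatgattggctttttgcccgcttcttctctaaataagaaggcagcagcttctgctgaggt
Ednrb: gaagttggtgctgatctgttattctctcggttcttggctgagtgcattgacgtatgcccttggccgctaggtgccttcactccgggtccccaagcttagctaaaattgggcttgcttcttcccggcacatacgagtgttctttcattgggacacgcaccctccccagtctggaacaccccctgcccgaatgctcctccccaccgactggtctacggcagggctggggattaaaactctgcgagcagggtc
Sox2: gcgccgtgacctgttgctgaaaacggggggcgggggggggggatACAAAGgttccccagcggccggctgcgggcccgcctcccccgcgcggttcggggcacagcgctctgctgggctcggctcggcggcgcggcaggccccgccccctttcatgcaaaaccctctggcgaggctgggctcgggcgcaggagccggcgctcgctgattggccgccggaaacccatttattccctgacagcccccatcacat

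The letters searched on both strands were TGTGGT and TGCGGT, forms of the RUNX motif, ACAAAG and ACAATG, forms of the SOX motif, and CACCTG, an E-box of the kind Snail factors bind. No 2 of these overlapped in the windows of the 4 genes. Among 32851 windows of the same length, TGTGGT occurred in 14.1%, TGCGGT in 5.10%, ACAAAG in 16.5%, ACAATG in 10.7% and CACCTG in 17.2%. The Sox2 window held ACAAAG once, 206 bases before the start site on the plus strand. None of the other letters was found in the 4 windows, which says only that these letters are absent from those windows.

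Per length, Fabp7 and Ednrb stood far above the other 6 genes in both genotypes. Fabp7 averaged 606 ± 193 CPM per kilobase of exon in homozygotes and 724 ± 86.8 in heterozygotes (SD, n = 4 and 3), and Ednrb averaged 136 ± 49.5 in homozygotes and 175 ± 55.0 in heterozygotes. Of the 11789 tested genes ranked on this scale over all libraries, Fabp7 was at rank 42, above the sensory neuron transcription factor genes Isl1 at rank 70 and Pou4f1 at rank 108, while the neuronal genes Tubb3, a tubulin, and Stmn2, a microtubule regulator, were at ranks 3 and 7. Ednrb was at rank 395, in the top 3.35%. The lengths are exon unions of another annotation (GENCODE M21) than the one the authors counted with, so these levels are approximate, the more so for Sox10, which the authors' deposited table describes as a partial mRNA.

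A middle tier held Pax3, Sox10, Sox2 and Erbb3. In homozygotes they averaged 14.6 ± 4.85, 10.9 ± 3.64, 9.20 ± 4.89 and 6.81 ± 2.39 CPM per kilobase in that order, and each overlapped the next. In heterozygotes the order was Sox10 at 12.9 ± 4.18, Pax3 at 8.25 ± 4.21, Sox2 at 6.80 ± 3.50 and Erbb3 at 6.17 ± 3.16 CPM per kilobase, again with each overlapping the next. Ntrk3, which encodes TrkC, averaged 134 ± 77.1 CPM in homozygotes and 171 ± 37.8 CPM in heterozygotes. Its exon union of 22013 bases is far longer than those of the 8 genes, at 1250 to 6016 bases, so its level per kilobase is not set beside theirs. Foxd3 and Snai2 were lowest: 1.02 ± 0.255 and 0.765 ± 0.394 CPM per kilobase in homozygotes, where they overlapped, and 0.912 ± 0.629 and 0.0860 ± 0.149 in heterozygotes, where they did not. Their ranks of 10086 and 11123 put them at 85.6% and 94.4% of the way down the ranked genes.

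**Figure D2:**
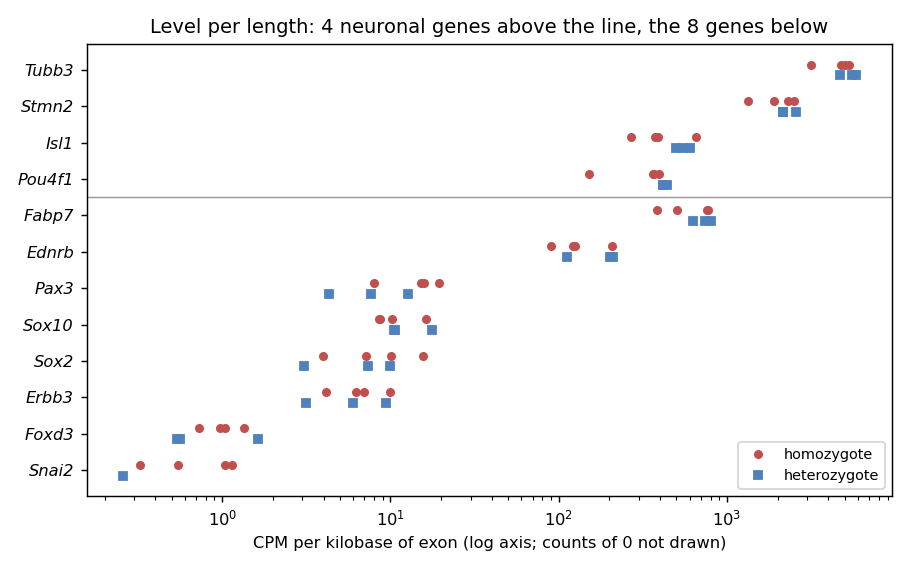
CPM per kilobase of exon on a log axis for 4 neuronal genes (above the grey line) and the 8 markers (below it), with a red circle per homozygote library and a blue square per heterozygote library; the counts of 0 for Snai2 in heterozygotes 1 and 2 are not drawn. Fabp7 and Ednrb sit well to the right of the middle tier of Pax3, Sox10, Sox2 and Erbb3, and Foxd3 and Snai2 sit lowest.

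Fabp7, the brain-type fatty acid binding protein that marks radial glia and satellite glial precursors, had 955, 478, 962 and 634 CPM in homozygotes 1 to 4, against 999.7, 928 and 786 CPM in heterozygotes 1 to 3. Homozygotes 2 and 4 lay below all heterozygotes, and homozygotes 1 and 3 lay among them. The log2 fold change was -0.26 ± 0.24 (SE, edgeR adjusted p = 0.751), with a 95% interval of 0.578-fold to 1.21-fold. The labels carry dates, and those of heterozygote 1 conflict: its title gives month 1 and its source name month 11. With month 11, used here, homozygotes 1 and 3 were the earliest and the latest libraries. The span used here leaves them out and holds the other 5 libraries. It does not match the genotypes by date. Heterozygotes 1 to 3 lay at days 70, 77 and 56 after the first library. Homozygotes 1 to 4 lay at days 0, 78, 141 and 113, all outside the heterozygote dates. With month 1, heterozygote 1 would be the earliest library and the span would differ. Within the span by month 11, homozygotes 2 and 4 stand against heterozygotes 1 to 3. There the log2 fold change of Fabp7 was -0.70 (edgeR unadjusted p = 0.00564, adjusted p = 0.243), and that of Ednrb was -0.72 (edgeR adjusted p = 0.443). Without homozygote 3 alone they were -0.39 and -0.32 (edgeR adjusted p = 0.663 and 0.827). For Fabp7 the span keeps only the homozygotes that lay below all heterozygotes, so its unadjusted p there is no support for a difference.

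Ednrb had 880, 386, 531 and 519 CPM in homozygotes 1 to 4, against 865, 475 and 895 CPM in heterozygotes 1 to 3. High and low libraries occurred in both genotypes: homozygote 1 stood with heterozygotes 1 and 3, and the other homozygotes with heterozygote 2. The log2 fold change was -0.36 ± 0.29 (SE, edgeR adjusted p = 0.695), with an interval of 0.493-fold to 1.22-fold. Ednrb lay at -0.17 on that scale without homozygote 3 and heterozygote 3, and at -0.62 without homozygote 1.

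Erbb3, the neuregulin receptor that Schwann cell precursors need for survival, had 59.6, 37.5, 24.8 and 42.0 CPM in the homozygotes, against 56.8, 18.9 and 35.8 CPM in the heterozygotes. Homozygote 1 and heterozygote 1 were highest, and heterozygote 2 was lowest. The log2 fold change was 0.14 ± 0.39 (SE, edgeR adjusted p = 0.940), with an interval of 0.603-fold to 2.01-fold, and its sign changed without homozygote 1 (-0.08) or without heterozygote 2 (-0.18).

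Sox10, the SOX factor kept by crest-derived glia, had 390, 580, 295 and 283 counts in the homozygotes, against 374, 571 and 338 counts in the heterozygotes. In CPM these were 28.4, 45.1, 23.6 and 24.0 in homozygotes and 29.2, 49.4 and 29.4 in heterozygotes. Homozygote 2 and heterozygote 2 were highest, and the other 5 libraries lay between 23.6 and 29.4 CPM. Homozygotes averaged 30.3 ± 10.1 CPM and heterozygotes 36.0 ± 11.6 CPM (SD, n = 4 and 3), at a log2 fold change of -0.25 ± 0.31 (SE, edgeR adjusted p = 0.829). The 95% interval ran from 0.519-fold to 1.37-fold. Without heterozygote 2 the value was 0.05.

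Foxd3, a forkhead factor of premigratory crest and of glial precursors, had few counts in every library. It had 43, 29, 30 and 20 counts in the homozygotes, against 16, 44 and 15 in the heterozygotes, which was 1.70 to 3.14 CPM in homozygotes and 1.25 to 3.81 CPM in heterozygotes. Heterozygote 2 was the highest library and heterozygotes 1 and 3 the lowest. The log2 fold change of 0.16 ± 0.70 (SE, edgeR adjusted p = 0.959) had an interval from 0.382-fold to 3.29-fold, and its sign changed without heterozygote 1 (-0.09), without heterozygote 3 (-0.08) and within the span of label dates by month 11 (-0.10).

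Sox2, the SOX factor of neural progenitors and of satellite glia, had 20.8, 14.8, 31.9 and 8.22 CPM in the homozygotes, against 15.2, 20.5 and 6.26 CPM in the heterozygotes. Homozygote 3 was the highest library, homozygote 4 and heterozygote 3 the lowest, and the genotypes overlapped over most of their range. The log2 fold change was 0.44 ± 0.51 (SE, edgeR adjusted p = 0.817), with an interval of 0.611-fold to 2.99-fold. It was -0.28 within the span of label dates by month 11 and -0.29 without homozygote 3 and heterozygote 3. Sox2 lies within the transcribed region of the noncoding gene Sox2ot, and no source used here gives how reads in the overlap were assigned.

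Pax3, a paired-box factor of the dorsal neural tube and the crest, had 1035, 751, 767 and 362 counts in the homozygotes, against 630, 344 and 193 counts in the heterozygotes. These were 75.5, 58.4, 61.4 and 30.7 CPM in homozygotes and 49.1, 29.8 and 16.8 CPM in heterozygotes. Homozygotes 1, 2 and 3 lay above all heterozygotes, and homozygote 4 lay below heterozygote 1 and just above heterozygote 2. Homozygotes averaged 56.5 ± 18.7 CPM and heterozygotes 31.9 ± 16.3 CPM (SD, n = 4 and 3), a ratio of 1.77. The log2 fold change of 0.82 ± 0.39 (SE) did not pass (edgeR unadjusted p = 0.0619, adjusted p = 0.43), with an interval of 0.966-fold to 3.25-fold. DESeq2 gave an unadjusted p of 0.0304 and an adjusted p of 0.269, and the authors' deposited table gave an adjusted p of 0.284. Without heterozygote 3 the log2 fold change was 0.53, and without heterozygote 1 it was 1.29 (edgeR adjusted p = 0.249).

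Snai2, which encodes the zinc-finger repressor Slug that acts when crest cells leave the epithelium, had 9, 27, 29 and 13 counts in the homozygotes, against 0, 0 and 6 in the heterozygotes. In CPM this was 0.656, 2.10, 2.32 and 1.10 in homozygotes and 0, 0 and 0.522 in heterozygotes, where 3 counts, the limit that a count of 0 allows, correspond to 0.234 and 0.259 CPM in heterozygotes 1 and 2. It was the one marker of the 8 whose genotypes did not overlap, beside 12.4% of all genes tested. Snai2 passed the filter on low counts only through the homozygotes, and it did not pass when homozygote 2, 3 or 4 was left out, so its direction and p depend on its being high there. The summed counts of 78 and 6 gave a ratio of 9.18 after scaling to library size (exact 95% interval 4.03 to 25.8, counting error only). Across libraries the log2 fold change was 3.10 ± 1.37 (SE, edgeR unadjusted p = 0.0477, adjusted p = 0.387), which failed the adjustment over all genes, and DESeq2 gave an adjusted p of 0.316. The authors' deposited table listed a log2 fold change of 1.21 (turned here to homozygote over heterozygote) and no adjusted p for it. Without heterozygote 1 or 2, the log2 fold change was 2.53 or 2.54 (edgeR adjusted p = 0.568 and 0.608). Without heterozygote 3, both remaining heterozygotes were at 0, and the fitted value of 7.29 then depends on the prior count.

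**Figure D3:**
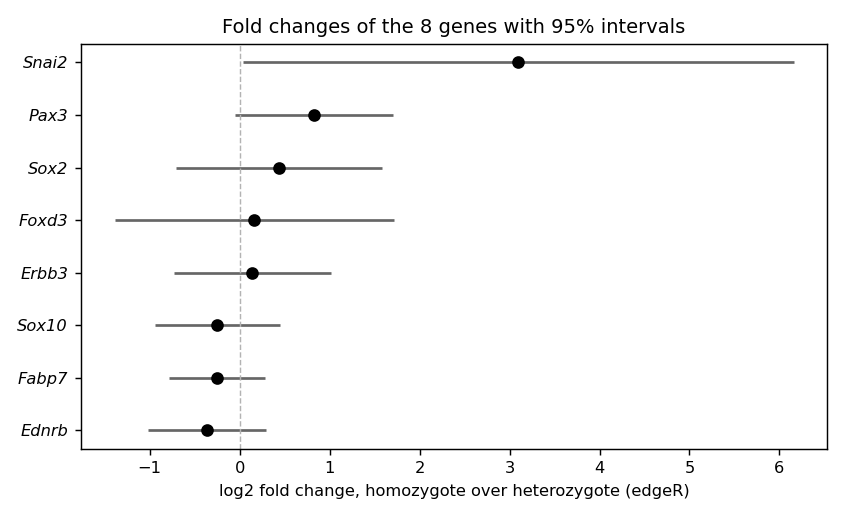
Log2 fold change, homozygote over heterozygote, of each of the 8 genes from edgeR (horizontal axis, points) with 95% intervals (lines), ordered by value from Snai2 at the top to Ednrb at the bottom; the dashed line marks no difference. The interval of Snai2, 0.04 to 6.16, lies just above 0 before any adjustment, and the other 7 intervals include 0. Snai2 passed the filter on low counts only through the homozygotes, so its interval is no support for a difference. Over all genes tested, 12.6% had an unadjusted edgeR p below 0.05.

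The profiles of the 8 genes over the 7 libraries did not follow a common course. Likeness was measured as the root mean square difference of log2 CPM after each gene was centred on its own mean, a description over 7 libraries with no test. Among all pairs, Fabp7 and Ednrb were closest at 0.38, followed by Erbb3 and Ednrb at 0.47, Sox10 and Foxd3 at 0.49, and Sox2 and Pax3 at 0.50. Among 10454 genes, Ednrb was at rank 1464 in likeness to Fabp7 and Fabp7 at rank 764 in likeness to Ednrb, and Foxd3 was at rank 3826 in likeness to Sox10 and Sox10 at rank 1299 in likeness to Foxd3. Pax3, at rank 272 in likeness to Sox2, with Sox2 at rank 352 in likeness to Pax3, was the highest placed of these pairs. Snai2 was far from all others, at 1.46 to 1.74.

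**Figure D4:**
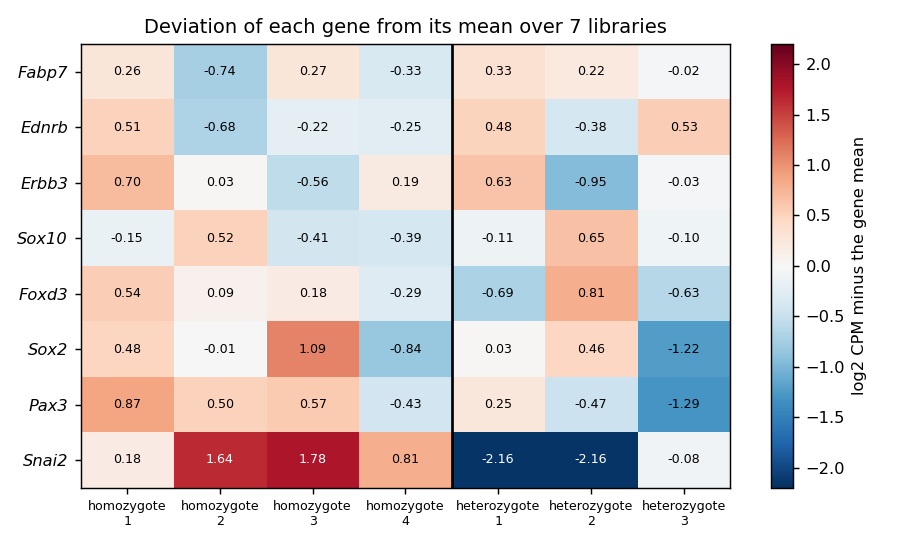
Heat map of log2 CPM minus each gene's mean over the 7 libraries, printed in each cell, with the 4 homozygotes left of the black line and the 3 heterozygotes right of it. Sox2 and Pax3 are both lowest in heterozygote 3, at -1.22 and -1.29, Sox10 and Foxd3 are highest in heterozygote 2, at 0.65 and 0.81, and Fabp7 and Ednrb are both lowest in homozygote 2, at -0.74 and -0.68.

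Outside the 8 genes, the genes most like Pax3 were Pbk, a mitotic kinase, at 0.22, Ccnd2, a D-type cyclin, at 0.23, and Cdca7, a cell-division-associated gene, at 0.25. Ccnd2 had 9250, 5652, 9072 and 3731 counts in homozygotes, against 4616, 3140 and 1936 in heterozygotes, a log2 fold change of 1.02 ± 0.33 (SE, edgeR). Of the genes near Sox2, Inpp5a came first at 0.21. For Snai2 the nearest was Ednra, the second endothelin receptor gene, at 0.45. Those nearest to Fabp7 (Mmaa, 0.12), Ednrb (Gpr107, 0.14), Sox10 (Mtmr3, 0.09), Erbb3 (Dclre1a, 0.19) and Foxd3 (Zfp703, 0.17) are on none of the lists used here. Each search covered 10453 candidate genes, or 10454 for Snai2.

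In the neuregulin pathway, whose ligands signal through Erbb3 paired with Erbb2, 5 of 7 listed genes were tested, and 0 were called by edgeR, 0 by DESeq2 and 0 at an unadjusted edgeR p below 0.05; the median log2 fold change was -0.31. Nrg1, the ligand that neurons present to glia, had 4205, 4156, 1866 and 4631 counts in the homozygotes, against 4299, 2923 and 5753 in the heterozygotes, with homozygote 3 the lowest. Erbb2, the partner receptor, had 84, 194, 80 and 73 counts in the homozygotes, against 65, 63 and 41 in the heterozygotes, without overlap, at a log2 fold change of 0.85 ± 0.49 (SE, edgeR adjusted p = 0.539). Erbb4 had 20, 1, 17 and 27 counts in homozygotes and 0, 6 and 2 in heterozygotes.

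Among the endothelins, their other receptor and their converting enzymes, 4 of 6 were tested; 0 were called by edgeR, 0 by DESeq2 and 1 had an unadjusted edgeR p below 0.05, with a median of 0.80. Ednra had 89, 206, 174 and 133 counts in the homozygotes, against 29, 22 and 84 in the heterozygotes. The lowest homozygote was just above the highest heterozygote in counts, but in CPM they overlapped at 6.49 and 7.30, and the log2 fold change was 1.64 ± 0.58 (SE, edgeR unadjusted p = 0.0175, adjusted p = 0.256). Edn3, the ligand of Ednrb in the crest, had 71, 75, 58 and 0 counts in homozygotes and 0, 0 and 14 in heterozygotes.

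Relatives of the markers were also without an edgeR call. Of the other Sox genes 10 of 11 were tested, 0 were called by edgeR and 1 by DESeq2, 3 had an unadjusted edgeR p below 0.05, all higher, and the median was 0.53. Sox6 had 833, 224, 428 and 114 counts in the homozygotes, against 121, 125 and 23 in the heterozygotes, at 2.04 ± 0.71 on the log2 scale (SE, edgeR adjusted p = 0.25, DESeq2 adjusted p = 0.0277). Sox1 had 40, 32, 16 and 2 counts in homozygotes and 4, 0 and 0 in heterozygotes. Sox9, a crest and progenitor factor, had 1356, 809, 1189 and 131 counts in the homozygotes, against 225, 264 and 9 in the heterozygotes. For both Sox6 and Sox9, homozygote 4 lay among the heterozygotes and heterozygote 3 was lowest, as for Pax3 and Sox2.

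Of the other Pax genes 4 of 7 were tested, with 0 called by edgeR, 0 by DESeq2, 1 at an unadjusted edgeR p below 0.05, and a median of 2.06, all 4 positive. Pax6 had 165, 109, 242 and 18 counts in the homozygotes, against 21, 41 and 0 in the heterozygotes (edgeR adjusted p = 0.383), and Pax7, like Pax3 a dorsal neural tube factor, had 17, 19, 59 and 3 in homozygotes and 7, 5 and 0 in heterozygotes. Among other fatty acid binding protein genes, 2 of 9 were tested, with 0 called by edgeR, 0 by DESeq2, 1 at an unadjusted edgeR p below 0.05, and a median of -0.16. Fabp5, the epidermal type, had 1296, 1370, 1079 and 1710 counts in the homozygotes, against 2025, 1714 and 2120 in the heterozygotes, without overlap, at -0.60 ± 0.20 on the log2 scale (SE, edgeR unadjusted p = 0.0149, adjusted p = 0.244). Fabp3, the heart type, was at 0.27 ± 0.54, and Fabp1, Fabp2, Fabp9, Fabp12 and Pmp2 had 0 counts in every library. Of the other Snail, Twist and Zeb factors 3 of 6 were tested, with 0 called by either tool, 0 at an unadjusted edgeR p below 0.05, and a median of -0.03. Twist1 had 31, 28, 61 and 4 counts in homozygotes and 1, 13 and 0 in heterozygotes, and Zeb2 was at -0.20 ± 0.22. Snai1, a crest repressor related to Snai2, had 9, 0, 27 and 0 counts in homozygotes and 1, 7 and 0 in heterozygotes.

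Of 20 further genes of the neural crest specification network, 15 were tested; 0 were called by edgeR and 2 by DESeq2, and 3 had an unadjusted edgeR p below 0.05. Their median log2 fold change was 0.60, with 12 positive and 3 negative. Mycn, a Myc-family factor, had 776, 469, 448 and 486 counts in the homozygotes, against 887, 1238 and 795 in the heterozygotes, without overlap (-0.94 ± 0.24, edgeR adjusted p = 0.149; DESeq2 adjusted p = 0.0188).

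In the list of Schwann cell precursor and satellite glia genes, 18 of 21 were tested, 0 were called by edgeR and 2 by DESeq2, 3 had an unadjusted edgeR p below 0.05, and the median was 0.33. The summed level was 722, 477, 833 and 498 CPM in the homozygotes, against 660, 474 and 583 CPM in the heterozygotes, which overlapped. Mal, a marker of later Schwann cells, had 0 counts in all libraries. The 2 that DESeq2 called were Kcnj10, a potassium channel of satellite glia, with 106, 22, 52 and 1 counts in the homozygotes, against 0, 0 and 1 in the heterozygotes (edgeR adjusted p = 0.149; DESeq2 adjusted p = 0.00454), and Apoe. Apoe, a lipid carrier made by glia and also by macrophages, had 83, 162, 1201 and 187 counts in the homozygotes, against 23, 52 and 4 in the heterozygotes (edgeR adjusted p = 0.171; DESeq2 adjusted p = 0.0294). Lgi4, a secreted protein of peripheral glia, had 122, 96, 123 and 82 counts in the homozygotes, against 202, 347 and 123 in the heterozygotes, at -1.18 ± 0.40 (SE, edgeR adjusted p = 0.24).

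As a check of the neuronal label, the sensory neuron list summed to 20518, 20782, 12540 and 22219 CPM in homozygotes 1 to 4, and to 22315, 21964 and 24885 CPM in heterozygotes 1 to 3, so neuronal transcripts were abundant in every library. Of 14 tested, 1 was called, Avil, the actin-binding protein advillin, lower in homozygotes (-2.43 ± 0.33, edgeR adjusted p = 0.0493). Without homozygote 3 edgeR still called 1 gene of the list, and without any other single library it called 0. The list of sensory neuron precursor genes had 10 of 10 tested, 0 called by edgeR, 2 called by DESeq2, 2 at an unadjusted edgeR p below 0.05, and a median of -0.25. In it Dll1, the Notch ligand of newborn neurons, had 479, 471, 580 and 333 counts in the homozygotes, against 216, 160 and 92 in the heterozygotes (1.50 ± 0.32, edgeR adjusted p = 0.118, DESeq2 adjusted p = 0.000678). Neurod1, a neuronal differentiation factor, had 10380, 5453, 3622 and 4803 counts in homozygotes, against 14430, 11293 and 9412 in heterozygotes (-1.05 ± 0.28, edgeR adjusted p = 0.155, DESeq2 adjusted p = 0.00925). Both were without overlap.

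Several marker lists varied over the libraries beside Pax3 and Sox2. Of the 15 spinal cord genes, 5 were tested, 0 were called by edgeR, 0 by DESeq2 and 1 at an unadjusted edgeR p below 0.05. None of the 15 was at 0 in all libraries, and their sum was 8.90 to 52.2 CPM in homozygotes and 0.174 to 15.7 CPM in heterozygotes, highest in homozygote 3 and lowest in heterozygote 3. The 14 cell cycle genes summed to 922 to 1835 CPM in homozygotes and 758 to 1133 CPM in heterozygotes; 0 were called by edgeR and 2 by DESeq2, 13 of 14 were positive, and the median was 0.53. The 2 with an unadjusted edgeR p below 0.05 were Mcm3 and Mcm5, subunits of the replicative helicase, at 1.47 ± 0.34 and 0.97 ± 0.28 (SE, edgeR adjusted p = 0.128 and 0.177). The 11 mesenchyme genes, 9 of them tested, 0 called by either tool and 1 at an unadjusted edgeR p below 0.05, summed to 132 to 463 CPM in homozygotes and 63.5 to 256 CPM in heterozygotes. The 15 leukocyte genes summed to 620, 765, 3884 and 874 CPM in the homozygotes, against 326, 335 and 290 CPM in the heterozygotes, without overlap and with none of the 15 at 0 in all libraries; edgeR called 0, DESeq2 called 11, and 14 had an unadjusted edgeR p below 0.05. The part of any of these in the values of Pax3, Sox2, Snai2 and Apoe was not tested. Without homozygote 3 and heterozygote 3 the log2 fold change of Pax3 was 0.48 (edgeR adjusted p = 0.894).

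**Figure D5:**
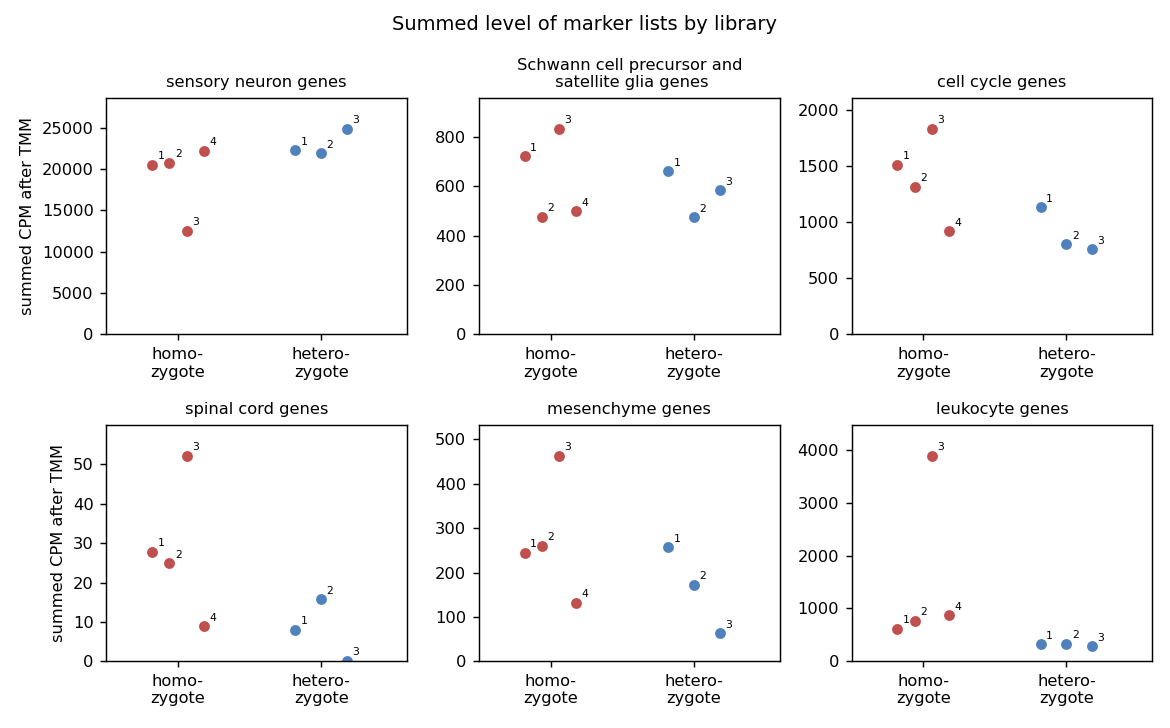
Summed CPM after TMM scaling of 6 marker lists (vertical axes from 0, a separate scale for each list) in the 4 homozygote (red, left) and 3 heterozygote (blue, right) libraries, numbered by library. Sensory neuron genes are lowest in homozygote 3, leukocyte genes are highest there at 3884 CPM, and the Schwann cell precursor and satellite glia sum overlaps between genotypes.

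Many genes in the lists for other derivatives of the crest, and for muscle, endothelium and erythroid cells, did not pass the filter on low counts. Of 8 melanoblast genes 3 were tested, with 0 called by edgeR, 1 by DESeq2 and 2 at an unadjusted edgeR p below 0.05. Kit, the receptor for stem cell factor, had 1742, 1209, 2248 and 705 counts in the homozygotes, against 691, 277 and 512 in the heterozygotes, without overlap (1.50 ± 0.39, edgeR adjusted p = 0.149; DESeq2 adjusted p = 0.00296). Mitf, the melanocyte master factor, had 52, 36, 131 and 0 counts in homozygotes and 0, 9 and 0 in heterozygotes, and the pigment genes Tyrp1 and Gpr143 had 0 in every library. Of 9 autonomic neuron genes 4 were tested, with 0 called by edgeR, 1 by DESeq2 and 1 at an unadjusted edgeR p below 0.05. Gata2, a zinc-finger factor, had 291, 154, 428 and 87 counts in the homozygotes, against 31, 62 and 5 in the heterozygotes (2.77 ± 0.79, edgeR adjusted p = 0.174; DESeq2 adjusted p = 0.00456). Gata3 had 15, 87, 121 and 6 in homozygotes and 23, 32 and 0 in heterozygotes. Of the muscle, endothelial and erythroid lists, 3 genes each were tested, edgeR called 0 of each, and DESeq2 called 1 endothelial gene; Cldn5, of endothelium, had 0 counts in every library. The 10 dermomyotome and muscle genes summed to 0.219, 181, 13.9 and 13.6 CPM in the homozygotes, against 7.64, 4.67 and 3.13 CPM in the heterozygotes, so homozygote 2 stood apart. Pax3 is also a gene of the dermomyotome, and in homozygote 2 it was at 58.4 CPM, between homozygotes 1 and 4. The erythroid genes summed to 2.70 to 12.3 CPM in homozygotes, and to 2.10, 115 and 0.522 CPM in the heterozygotes, where heterozygote 2 stood apart. The part of either list in the values of the 8 genes was not tested.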

How the data were processed

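The authors deposited raw counts per gene and library; the file headers call heterozygotes WT and homozygotes KO. Per the labels' protocols, RNA was amplified with a SMARTer Ultra Low kit and read as single-end 50 bp sequence. TopHat 1.4.0, HTSeq, DESeq2 1.2.8 and mm9 stand in the submitters' processing notes; no source used here gives the annotation or strand setting. From the authors' deposited table, log2 fold change and adjusted p-value are printed for comparison, with the sign turned.

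Counts were filtered with filterByExpr (minimum count 10, minimum total 15), scaled by TMM and compared with edgeR 4.0.16 (glmQLFit and glmQLFTest, two-sided, R 4.3.3). A p-value was adjusted by Benjamini-Hochberg over all 14040 genes. CPM were counts over the scaled library size. For likeness, log2 CPM used a prior count of 2 and genes with a mean log2 CPM of at least 1. Alternatives were DESeq2 1.42.0, limma-voom (limma 3.58.1), other scalings and filters, the label dates (with month 11 for heterozygote 1) and leaving out libraries. The steps were tested on simulated data.

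The 8 genes and the lists were chosen with earlier results of these data known. From each list the text names every called gene, or else the 2 with the smallest p, and genes at 0 throughout; Nrg1, Sox9, Fabp3, Lgi4, Snai1 and the neuronal genes of the level comparison were added after their values were seen. Some genes that this rule takes are not reported here. Of 212 list symbols, 3 matched by an older symbol and 2 were not matched.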

Additional observations from a re-analysis of the deposited data

How the results depend on the processing

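Over 19 alternatives, 0 of the 8 genes was called in each. The count of all genes called, 7 in the main analysis, was 668 with DESeq2, 61 with the adjusted quasi-dispersion, 80 with no count filter, 3 with the label date as a covariate, 12 without homozygote 3 and heterozygote 3, and 1 to 27 on leaving out single libraries (27 without homozygote 3, 4 without homozygote 4, 3 without heterozygote 1, 1 without heterozygote 2 or 3); the cause was not tested. The median log2 fold change of the 8 genes (of 7 where homozygote 2, 3 or 4 is left out, since Snai2 then fails the filter) was -0.13 without homozygote 3 and heterozygote 3 and -0.03 to 0.41 on leaving out single libraries. On leaving out single libraries, the sign of the log2 fold change reversed for Sox10 (-0.50 to 0.049), Foxd3 (-0.093 to 0.89) and Erbb3 (-0.18 to 0.60). Foxd3 was at -0.10 within the span of label dates and at -0.091 without homozygote 3 and heterozygote 3, and Sox2 was at -0.28 and -0.29 under these settings. Fabp7 (-0.70 to -0.09), Ednrb (-0.72 to -0.17) and Pax3 (0.48 to 1.29) kept their sign in all 19 alternatives. Snai2 was at 2.53 to 7.29 in the 16 in which it passed the filter, which it does only through the homozygotes, so its sign there is no sign of stability. The lowest adjusted p of any of the 8 genes was 0.218 (Snai2, adjusted quasi-dispersion, edgeR). The date covariate and the span use month 11 for heterozygote 1, whose title gives month 1, and neither was run with month 1. No paired analysis was possible because the labels and columns carry no replicate numbers. With 3 and 4 libraries and counts of 0 to 44, the fold changes of Foxd3 and Snai2 were poorly bounded. Their unadjusted 95% intervals ran from 0.382-fold to 3.29-fold for Foxd3 and from 1.03-fold to 71.3-fold for Snai2.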
